A study of Mus musculus with 14 samples.

Results

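The regions described are 14907 Gfi1 antibody islands that were called in Cas9 neurospheres and not in Suz12F2 neurospheres, out of 63177 Gfi1 antibody islands of Cas9 neurospheres and 201448 regions in all lists analysed. They were chosen by calls in the chromatin immunoprecipitation lists themselves (ChIP-seq, which sequences the DNA that an antibody to a protein or histone mark brings down). An island was kept when it shared no base with a Gfi1 antibody island of Suz12F2 neurospheres and none with an island of the 3 lists made with an antibody to Cas9, the nuclease used for gene knockout. Of the 63177 islands, 15084 had no Suz12F2 partner, a share of 23.9%. A further 177 of these were removed because they met a Cas9 antibody island, which left 14907, or 23.6% of the list (Wilson 95% interval 23.3 to 23.9). They are called Cas9-only islands in what follows. The 45114 islands that did have a Suz12F2 partner, and met no Cas9 antibody island, are called shared islands.

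Per the labels, both neurosphere cultures were p53-/-;p18-/- and were profiled with the same Gfi1 antibody, one in cells labelled Suz12F2 and one in cells labelled Cas9. Neurospheres are floating cultures of neural cells, p53 is a tumour suppressor and p18 is an inhibitor of cyclin-dependent kinases. The 3 Cas9 antibody lists came from p53-/-;p18-/- neurospheres labelled Suz12F1, Suz12F2 and U6. The tumour cells, to which the islands are compared, were p53-/-;p18-/- ;Ezh2-/- cells, labelled Ezh2KO, and p53-/-;p18-/- cells, labelled Cas9, and H3K27me3, H3K27ac and H3K4me3 were mapped in both. Per the series' design text the cells overexpress Myc, and the growth protocol given for every library, those of neurospheres included, describes Group 3 medulloblastoma tumorspheres that were infected with retroviral vectors, sorted for fluorescence and injected into the brains of immunodeficient nude mice. The labels do not explain F1, F2 and U6, and do not say whether Suz12 protein was lost in the Suz12F2 culture. With 1 library per group, replicate error is unknown throughout and the cultures could not be compared by a test. Wilson intervals cover counting error only, and read depth is unknown. The identity of the neurospheres could not be checked against marker genes, since no expression values or gene positions of build mm9 were used here.

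Gfi1 is a zinc finger protein that binds DNA and represses transcription by bringing histone demethylases and deacetylases to its sites. Suz12 and Ezh2 are subunits of Polycomb repressive complex 2, which places methyl groups on lysine 27 of histone H3, and H3K27me3 is the mark of genes silenced in this way. H3K4me3 marks promoters, and H3K27ac marks promoters and enhancers in use.

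The Cas9-only islands were short and of low score. Their length had a median of 3000 bp and quartiles of 2200 and 4200 bp, against a median of 4400 bp and quartiles of 2600 and 7600 bp for shared islands. The longest measured 25000 bp, against 123800 bp among shared islands. Together they covered 49.8 Mb, or 13.5% of the length of the Cas9 neurosphere list, although they made up 23.6% of its number. Islands from 2 to below 4 kb made up 52.3% of them and 31.1% of the shared islands. At 8 kb or more the shares were 2.53% and 23.5%. The score is a whole number the authors gave each island, and it was used here to rank islands within this 1 list. The median Cas9-only island stood at the 26.9th percentile of the list and the median shared island at the 57.9th.

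Length did not account for all of that difference in rank. When shared islands were weighted so that their lengths followed those of the Cas9-only islands in steps of 200 bp, the median score was 103 for Cas9-only islands, against 124 for the weighted shared islands. Per kb of island the median scores were 35.6 for Cas9-only islands and 42.3 for shared islands of the same lengths. The same order held in each length class, with 46.2 against 53.3 per kb from 1 to below 2 kb and 32.5 against 41.7 per kb at 8 kb or more. Scores come from 1 of the libraries that defined the islands, so these values describe the choice and were not tested.

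**Figure D1:**
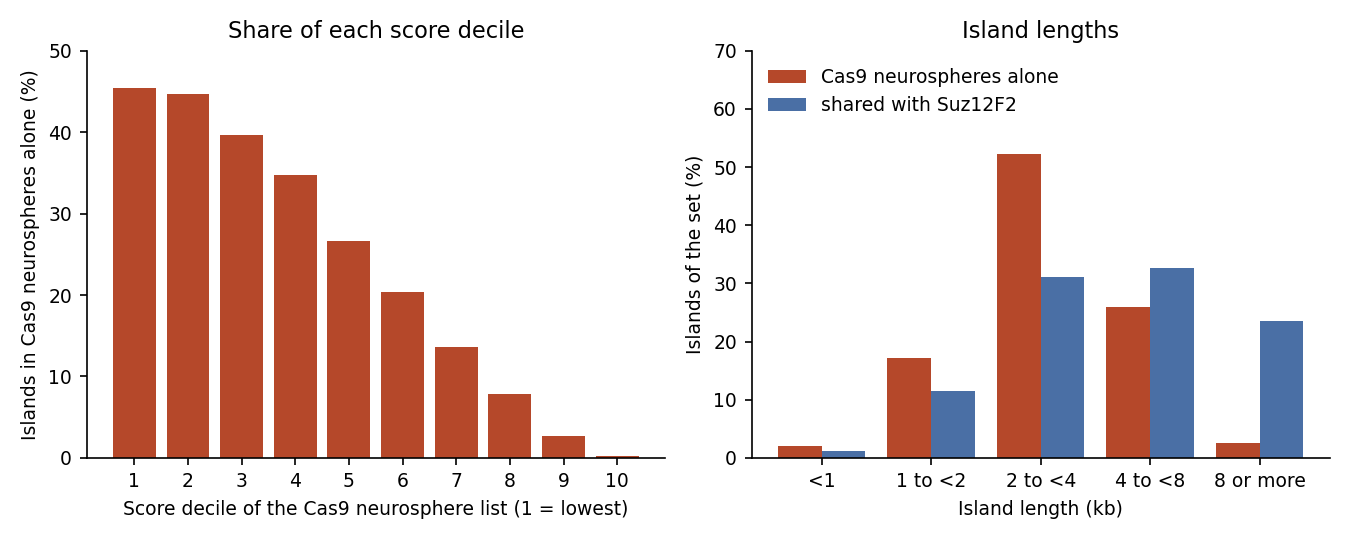
Left, the share of Gfi1 antibody islands in each score decile of the Cas9 neurosphere list that were called in Cas9 neurospheres alone, with decile 1 the lowest. Right, the share of Cas9-only islands and of shared islands in each length class in kb. The share is 45.4% in the lowest decile and 0.253% in the highest, and 52.3% of Cas9-only islands measure from 2 to below 4 kb.

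By decile of score, the share of Cas9-only islands declined without a break from the lowest scores to the highest. It was 45.4% in the lowest decile (2871 of 6318 islands), 26.7% in the fifth and 0.253% in the highest (16 of 6318). The lowest 5 deciles held 19.3%, 18.9%, 16.8%, 14.7% and 11.3% of all Cas9-only islands.

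The highest-scoring Cas9-only island was chr5:136934201-136959200, with a score of 853 over 25000 bp (coordinates are of mouse build mm9). A Suz12F2 island lay 0.6 kb from its edge. Next came chr11:88618201-88638200 at 803 and chr11:101228401-101249200 at 766. Their gaps to the nearest Suz12F2 island were 10.4 and 1.8 kb. chr5:141282801-141300800 had a score of 756 and a gap of 4.2 kb. Scores of 657, 588 and 568 were given to chr11:35243401-35262600, chr11:88104401-88118200 and chr11:63054801-63070200. chr7:89436201-89452600 followed with 567, chr5:145207001-145225400 with 562 and chr2:76574201-76589600 with 537. None of these 10 islands met a region of any of the 6 tumour lists. The nearest H3K4me3 peak of Cas9 tumour cells lay 5.00 kb from the fourth island and 108.4 and 116.1 kb from the seventh and the eighth. Of all Cas9-only islands 89.4% met none either, so this does not set the highest-scoring ones apart.

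The distance from a Cas9-only island to the nearest Suz12F2 island varied widely. It had a median of 6.4 kb, with quartiles of 2.2 and 17.2 kb, and 8367 of them, or 56.1%, lay more than 5 kb away. More than 100 kb lay between 493 of them, or 3.31%, and any Suz12F2 island. At the other end, 42 touched a Suz12F2 island without sharing a base, and 390 had a gap of up to 0.6 kb, the distance over which the authors' caller joins windows. Just inside the rule, with a gap of 0, were chr11:87698001-87709400 with a score of 416 and chr11:33481601-33491000 with a score of 290. Just outside it, with 200 bp shared, were chr1:91331801-91338400 with a score of 218 and chr13:53517201-53523200 with a score of 209. There were 96 shared islands with only 200 bp in common. Of all shared islands 6935, or 15.4%, were covered over less than 50% of their length, so the rule separates calls that can differ by a single window.

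Along the chromosomes, Cas9-only islands stood both singly and in runs, in a list of which they made up 23.6%. Of the 14907, 6637 (44.5%) had neither neighbour in the list called Cas9-only, and 1382 (9.27%) stood in runs of 5 or more. The values that a random order of the list would give were not computed. These counts alone therefore do not say whether the islands were scattered or clustered. The longest run held 15 consecutive Cas9-only islands on chr7:124944001-125149400. Runs of 14 lay at chr15:74809401-75292000 and chr5:126282201-127246800.

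Under the rule of 1 bp, these islands seldom met promoter marks, which the rule did not use. An H3K4me3 peak of Ezh2KO tumour cells overlapped 14 of 14907 Cas9-only islands, or 0.0939% (0.0560 to 0.158), and a peak of Cas9 tumour cells overlapped 11, or 0.0738% (0.0412 to 0.132). Among shared islands weighted to the same lengths, the shares were 16.5% for Ezh2KO and 16.3% for Cas9 tumour cells. Over all Gfi1 antibody islands of Cas9 neurospheres they were 14.4% and 14.1%. The differences were -16.4 percentage points (-16.8 to -16.0) for Ezh2KO and -16.2 (-16.6 to -15.8) for Cas9 tumour cells. With shared islands weighted to the same scores as well as lengths, as an alternative added after seeing the data, the shared shares were 7.79% and 7.74% and the differences -7.69 and -7.67 points. The differences were thus smaller with this weighting, which used classes of 5 score percentiles and 1 kb. Scores come from a library that defined the islands, and their part in the result was not tested. How close the Cas9-only share came to 0 depended on the overlap rule. When an island counted as shared only if Suz12F2 islands covered at least 50% of it, 21842 islands were Cas9-only, and 2.99% of them met H3K4me3 of Ezh2KO and 3.01% that of Cas9 tumour cells, against 15.9% and 15.6% of length-weighted shared islands.

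H3K27ac gave the same picture. Peaks of Ezh2KO tumour cells overlapped 8 Cas9-only islands, or 0.0537% (0.0272 to 0.106), and those of Cas9 tumour cells overlapped 5, or 0.0335% (0.0143 to 0.0785). Shared islands of the same lengths stood at 12.7% and 10.5%, and all islands of the list at 11.0% and 8.74%. The differences were -12.6 points (-13.0 to -12.2) and -10.5 points (-10.9 to -10.2). At equal lengths and scores they were -5.96 and -4.85 points. With the rule of 50% cover the Cas9-only shares were 2.24% and 1.79%, and the differences -9.77 and -7.97 points.

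**Figure D2:**
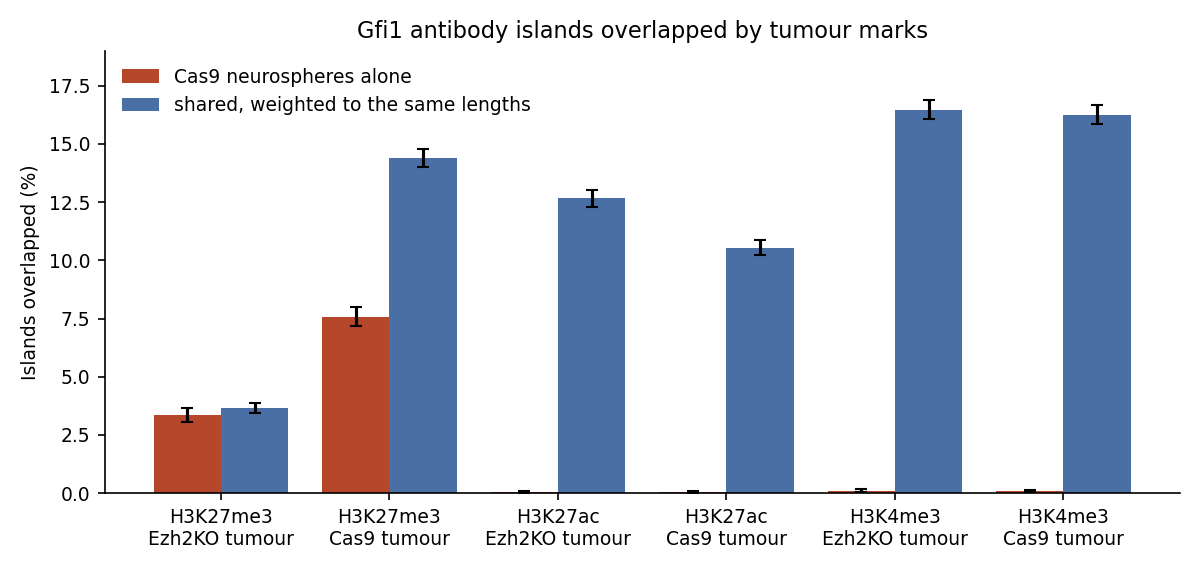
Share of Cas9-only islands and of shared islands weighted to the same lengths that a region of each tumour list overlapped, in percent, with Wilson 95% intervals as error bars. H3K4me3 and H3K27ac bars of Cas9-only islands lie at or below 0.0939%, and the H3K27me3 bars are 3.34% for Ezh2KO and 7.57% for Cas9 tumour cells.

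In all, 18 Cas9-only islands met a peak of H3K27ac or H3K4me3 in either kind of tumour cell, or 0.121%, against 17.4% of length-weighted shared islands. None of the 18 met an H3K27me3 region. The highest-scoring with H3K4me3 was chr6:134960601-134971800, with a score of 417, and shared 361 bp with a peak of Ezh2KO and 681 bp with peaks of Cas9 tumour cells. It had no H3K27ac peak, and the nearest Suz12F2 island was 24.8 kb away. Next by score were chr13:21350401-21356600 and chr13:58460001-58464600, and the second of these also met an H3K27ac peak in Ezh2KO and none in Cas9 tumour cells. The highest-scoring with H3K27ac was chr9:102545601-102552000, with 435 bp of a peak in Ezh2KO and 309 bp in Cas9 tumour cells, and had no H3K4me3. chr1:34898401-34900800 and chr4:107550801-107552600 carried both marks in both kinds of cell. Islands with both marks thus existed, and they were few: 5 in Ezh2KO and 4 in Cas9 tumour cells.

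Seen from the peaks, the same scarcity appeared. Of 14417 H3K4me3 peaks of Ezh2KO tumour cells 16 overlapped a Cas9-only island, and of 14363 peaks of Cas9 tumour cells 16 did, 0.111% of each list. Shared islands overlapped 67.0% and 66.8% of these peaks. Suz12F2-only islands, chosen by the mirrored rule in the other list, overlapped 9.95% and 10.2%. The 12312 Suz12F2-only islands, out of 67079 in the Suz12F2 list, were shorter, with a median of 1800 bp. Cas9-only islands weighted to those lengths met H3K4me3 peaks at 0.212% for Ezh2KO and 0.191% for Cas9 tumour cells, against 9.88% (9.37 to 10.4) and 10.2% (9.64 to 10.7) of Suz12F2-only islands. The Cas9-only shares at H3K4me3 thus lay below the intervals of the Suz12F2-only shares. These intervals treat islands as independent, although neighbouring islands can be called together, and they do not cover error between libraries. Whether a repeat library of either culture would keep the difference in shares was not tested.

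Distance to H3K4me3 showed a second pattern beyond the overlap itself. The median distance from a Cas9-only island to the nearest H3K4me3 peak was 71.1 kb for Ezh2KO and 74.1 kb for Cas9 tumour cells, against 35.4 and 36.9 kb for shared islands of the same lengths. Leaving out shared islands that overlapped a peak, their medians were 49.8 and 51.5 kb. For H3K27ac peaks the medians were 95.1 and 123.2 kb for Cas9-only islands and 51.8 and 72.2 kb for shared ones. Without the shared islands that overlapped an H3K27ac peak, the shared medians were 65.9 and 88.6 kb. Scores were not equalised for these distances.

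The share of all Gfi1 antibody islands that were Cas9-only grew with that distance. It was 0.154% (0.0918 to 0.258) for islands on an H3K4me3 peak of Ezh2KO tumour cells, 19.7% (18.4 to 21.1) within 5 kb of one, 26.4% (25.6 to 27.3) from 50 to 100 kb and 45.3% (42.8 to 47.9) beyond 500 kb. Island length alone, taking in each length class the share found over the whole list, gave 21.5%, 22.0%, 23.9% and 29.2% in these classes. Length and score together gave 8.94%, 22.6%, 25.8% and 35.7%. The median score percentile of the islands was 63.2 on a peak and 26.9 beyond 500 kb, so score moved with distance. With H3K4me3 peaks of Cas9 tumour cells the shares were 0.123%, 20.1%, 26.1% and 45.0%. The share was thus far below what length gives on the peaks, slightly below it within 5 kb of them and above it from 50 kb outward. Beside length and score together, the share for Ezh2KO peaks was lower on the peaks, within 5 kb and from 5 to 20 kb (22.3% against 23.6%). It was higher from 100 to 200 kb (31.9% against 27.8%), from 200 to 500 kb (39.5% against 31.3%) and beyond 500 kb. From 20 to 50 kb and from 50 to 100 kb the value from length and score lay inside the observed interval.

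**Figure D3:**
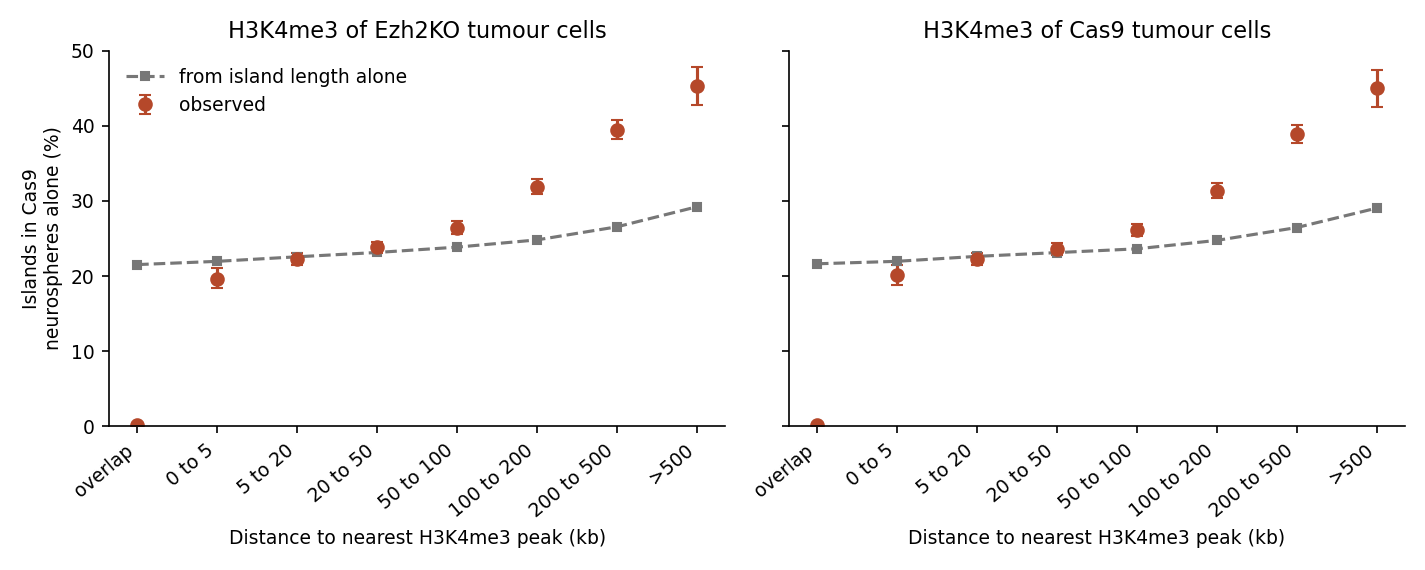
Share of Gfi1 antibody islands of Cas9 neurospheres called there alone, in percent, by distance in kb to the nearest H3K4me3 peak of Ezh2KO (left) and Cas9 (right) tumour cells. Circles are observed shares with Wilson 95% intervals and squares the share that island length alone gives, with the observed share at 0.154% and 0.123% on a peak and 45.3% and 45.0% beyond 500 kb.

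H3K27me3 differed from the marks of promoters, in that Cas9-only islands met it more often. Its regions were also longer, with medians of 3000 bp in Ezh2KO and 3800 bp in Cas9 tumour cells. Medians were 516 and 601 bp for H3K4me3 and 391 and 384 bp for H3K27ac. The H3K27me3 lists differed in size, with 5312 regions for Ezh2KO and 14107 for Cas9 tumour cells. Shares were not adjusted for the length or number of mark regions. H3K27me3 regions of Ezh2KO tumour cells overlapped 498 Cas9-only islands, or 3.34% (3.06 to 3.64), and those of Cas9 tumour cells overlapped 1129, or 7.57% (7.16 to 8.01). Length-weighted shared islands stood at 3.65% and 14.4%, and all islands of the list at 5.09% and 17.2%. For Ezh2KO tumour cells the difference was -0.308 points, with an interval from -0.657 to 0.0530 that includes 0. Across the alternatives it ran from -1.85 points without length weighting to 0.106 points at equal lengths and scores. With length weighting kept, 4 alternatives gave between -0.509 and -0.386 points with intervals below 0. For Cas9 tumour cells it was -6.81 points (-7.38 to -6.23), and it was -3.70 points at equal lengths and scores and -11.5 points without any weighting.

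Longer Cas9-only islands met H3K27me3 more often, as longer shared islands did. With H3K27me3 of Ezh2KO tumour cells the intervals of both sets overlapped in each length class, and the shares were 7.96% (5.63 to 11.1) of Cas9-only and 9.19% (8.65 to 9.75) of shared islands at 8 kb or more. With H3K27me3 of Cas9 tumour cells they stood apart from 1 kb upward. From 1 to below 2 kb the share was 4.49% (3.75 to 5.36) of Cas9-only islands and 9.44% (8.67 to 10.3) of shared ones. From 4 to below 8 kb it was 9.74% and 19.3%, and at 8 kb or more 13.8% (10.7 to 17.6) and 31.3% (30.5 to 32.2). The intervals treat islands of 1 library as independent, so whether they overlap is not a test of a difference.

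**Figure D4:**
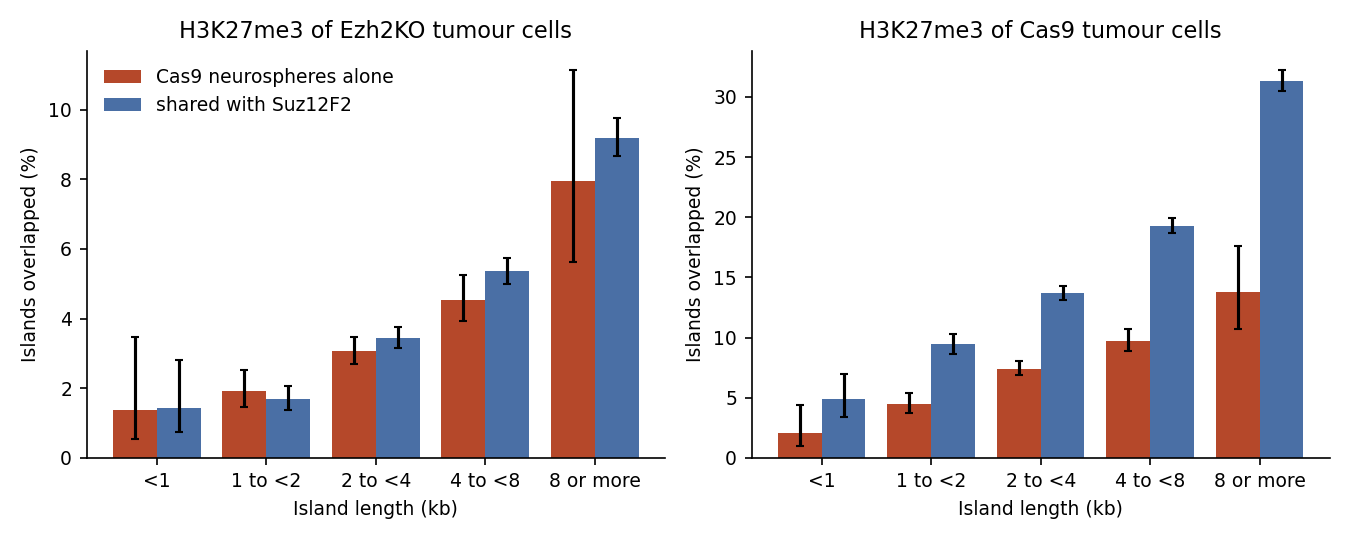
Share of Cas9-only and of shared islands overlapped by H3K27me3 regions of Ezh2KO (left) and Cas9 (right) tumour cells, in percent, by island length in kb, with Wilson 95% intervals. At 8 kb or more the Cas9-only share is 7.96% against 9.19% with Ezh2KO tumour cells, and 13.8% against 31.3% with Cas9 tumour cells.

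Set by set, 429 Cas9-only islands (2.88%, 2.62 to 3.16) met H3K27me3 of Ezh2KO tumour cells alone, 1060 (7.11%, 6.71 to 7.53) met that of Cas9 tumour cells alone and 69 (0.463%, 0.366 to 0.585) met both. Length-weighted shared islands stood at 2.17%, 12.9% and 1.48% in these classes. The Cas9-only set was therefore higher where H3K27me3 was called in Ezh2KO tumour cells alone and lower in both other classes, at equal lengths. Scores were not equalised for these classes. Of the 1129 islands at H3K27me3 of Cas9 tumour cells, 6.11% (4.86 to 7.66) also met it in Ezh2KO, against 10.3% of length-weighted shared islands. Cas9-only islands that lay wholly inside an H3K27me3 region numbered 99 of the 498 overlapped for Ezh2KO and 328 of the 1129 for Cas9 tumour cells. This was not counted for shared islands.

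The highest-scoring Cas9-only island with H3K27me3 of Cas9 tumour cells was chr7:139383001-139397400, with a score of 490. H3K27me3 covered 4600 bp of it in Ezh2KO and 3800 bp in Cas9 tumour cells. chr8:90042201-90054200 and chr11:78581801-78592600 followed, with 0 bp covered in Ezh2KO and 1600 and 4400 bp in Cas9 tumour cells. With H3K27me3 of Ezh2KO the first 2 by score were chr11:80715401-80730600 and chr11:80876801-80891800, with 400 and 2200 bp covered in Ezh2KO and 0 in Cas9 tumour cells.

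No mark of the 6 tumour lists was found at 13331 Cas9-only islands, or 89.4% (88.9 to 89.9), against 68.4% of length-weighted shared islands. Within 1 kind of tumour cell, 0 Cas9-only islands carried H3K27me3 together with H3K4me3 or H3K27ac, but with only 18 islands at either active mark this count says little. H3K27me3 with H3K4me3 and no H3K27ac was met at 0.132% of length-weighted shared islands for Ezh2KO and 1.55% for Cas9 tumour cells.

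Cas9-only islands were unevenly spread over the chromosomes. Per Mb of the span seen in any list, chromosome 11 held the most with 10.4, followed by chromosome 7 with 9.17 and chromosome 8 with 8.11. The fewest were on chromosome X, with 0.105 per Mb or 17 islands in all, then chromosome 18 with 2.22 and chromosome 3 with 2.56. The whole Cas9 neurosphere list was uneven too, with 43.1, 34.1 and 30.8 islands per Mb on chromosomes 11, 7 and 8. On chromosomes X, 18 and 3 it had 1.65, 14.4 and 12.3. The Cas9-only islands were 24.2% of the list on chromosome 11. This share ran from 6.37% (4.01 to 9.96) on chromosome X and 14.3% (13.2 to 15.4) on chromosome 4 to 29.9% (28.2 to 31.7) on chromosome 13 and 31.6% (30.0 to 33.4) on chromosome 14. Island length alone gave 31.2%, 22.9%, 27.2% and 24.7% on these 4 chromosomes. Length and score together gave 40.4%, 23.7%, 31.0% and 24.1%.

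The size of the lists differed on the chromosomes at both ends of this range. Chromosome X had 639 islands in the Suz12F2 list and 267 in the Cas9 list, a ratio of 2.39, and chromosome 18 had 1808 and 1261, a ratio of 1.43. The ratio was 1.30 on chromosome 3 and 1.21 on chromosome 16, where 15.8% (14.2 to 17.6) of islands were Cas9-only. Chromosome 14 was lowest at 0.908, with 2650 and 2917 islands, and had the highest Cas9-only share. The order was not strict. Chromosome 3, with 20.9%, lay above chromosomes 16, 19, 12 and 17, whose ratios were lower, and chromosome 4 had 14.3% at a ratio of 1.13. Whole-chromosome differences in copy number or coverage between the 2 cultures cannot be read from these lists, and their part in the result was not tested. On chromosome 1, 13.2% of Cas9-only and 23.7% of shared islands met H3K27me3 of Cas9 tumour cells, and on chromosome 3 the shares were 2.25% and 11.9%, without length weighting. Shared islands thus also met this mark less often on chromosome 3 than on chromosome 1.

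**Figure D5:**
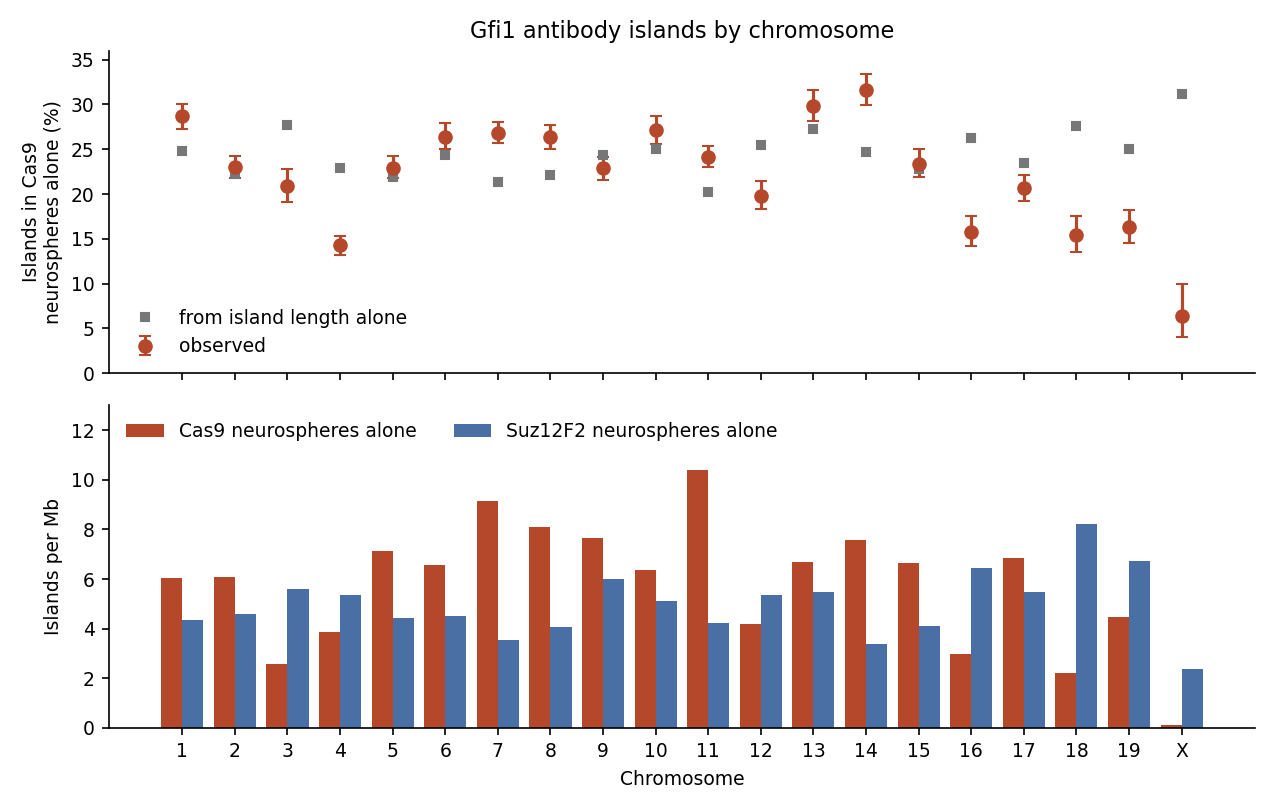
Above, the share of Gfi1 antibody islands on each chromosome called in Cas9 neurospheres alone, in percent with Wilson 95% intervals, beside the share that island length alone gives. Below, Cas9-only and Suz12F2-only islands per Mb of chromosome span, with Cas9-only islands highest on chromosome 11 at 10.4 per Mb and lowest on chromosome X at 0.105.

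Over windows of 1 Mb the Cas9-only islands were about as unevenly spread as the list they came from. Of 2230 windows with a Gfi1 antibody island of Cas9 neurospheres, 1825 held a Cas9-only island, with a median of 5 and a maximum of 49, and 415 windows held 50% of them. For shared islands this number was 394 and for all islands of the list 441. The densest was chr7:145000001-146000000, where 49 of 62 islands (79.0%) were Cas9-only. Next was chr11:81000001-82000000 with 38 of 61, or 62.3%. chr15:87000001-88000000 had 35 of 79, chr2:178000001-179000000 had 35 of 76 and chr7:37000001-38000000 had 34 of 74. In the first 2 windows neither tumour genotype had a peak of H3K4me3 or H3K27ac.

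H3K27me3 of Ezh2KO tumour cells was frequent in several of these windows. The first chromosome 7 window held 14 such regions, against 5 of Cas9 tumour cells, and the chromosome 11 window held 30 against 6. On chromosomes 15 and 2 the numbers were 44 against 7 and 41 against 19, while the second chromosome 7 window held 0 against 1. Over the 111 windows with 20 or more Cas9-only islands the mean was 8.59 regions of Ezh2KO and 11.8 of Cas9 tumour cells. Over the 534 windows with 10 to 19 it was 2.95 and 10.0. These windows also held many Gfi1 antibody islands in all, 65.0 and 50.7 on average. The 111 windows held 18.4% of Cas9-only islands and 11.4% of all islands. Windows were classed by their number of Cas9-only islands, which by itself favours the larger first share. Windows with 5 to 9 Cas9-only islands held on average 3.32 H3K27me3 regions of Ezh2KO, windows with 1 to 4 held 1.15 and windows with none 0.474. H3K4me3 peaks of Cas9 tumour cells averaged 5.85 in windows with 20 or more, 9.11 with 10 to 19, 9.35 with 5 to 9, 4.78 with 1 to 4 and 2.00 with none. The mean number of Ezh2KO H3K27me3 regions per window was thus highest in the densest of these 5 classes. Neither it nor that of H3K4me3 peaks of Cas9 tumour cells rose at every step. Windows with 5 to 9, 1 to 4 and no Cas9-only islands held 37.1, 13.2 and 2.89 Gfi1 antibody islands on average. The numbers of mark regions were not adjusted for this.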

How the data were processed

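The deposited lists hold regions called by the authors on 1 library each. Per the file names, the islands were built from windows of 200 bp joined across gaps of 600 bp at a false discovery rate of 0.00001. The submitters' processing notes name SICER 1.1, SAMtools, Picard, BWA 0.5.9-r26 and R 2.14.0, with no role given, and build mm9. The sources used here do not name the caller of the H3K27ac and H3K4me3 peaks or the background library of each list. The score in each deposited list is the authors' own, its meaning is not stated, and it ranked regions within 1 list only.

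Island ends were extended by 1 bp, since they name the last base counted from 0. Overlap meant at least 1 bp. Shared islands were weighted to the lengths of Cas9-only islands in steps of 200 bp, with lengths of 20 kb or more pooled. No Cas9-only island lacked a shared island of its length class. Intervals of differences combine the Wilson intervals of both shares, with the effective number of weighted islands. Python 3.11.15, numpy 2.4.6, pandas 2.3.3, scipy 1.17.1 and matplotlib 3.10.9 were used. Overlaps and gaps of the 63177 islands with the other 10 lists were checked against bedtools 2.31.1, and 0 differed. Weighting was tested on simulated data.

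Named islands are the 10 highest in score, the 5 longest (all among those 10), the 3 highest with each tumour mark, those next to the 1 bp rule and the 5 fullest windows. From some of these sets only the first are named. The set and its comparisons were chosen with earlier results of these data known. Alternatives were other overlap rules, score and length limits, autosomes, other weightings and other handling of Cas9 antibody lists. No gene is named and no sequence printed, because the gene and promoter tables at hand are of another build.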

Additional observations from a re-analysis of the deposited data

How the results depend on the processing

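The direction of the differences in H3K4me3, H3K27ac and Cas9 tumour H3K27me3 held under every alternative run. The number of Cas9-only islands was 8367 with no Suz12F2 island within 5 kb and 2853 in the upper 50% of scores, and otherwise between 14616 and 21842. In the following, differences in percentage points between Cas9-only and weighted shared islands are given for H3K4me3 in Ezh2KO and in Cas9 tumour cells, then for H3K27ac in both, then for H3K27me3. Counting islands as shared only at 50% cover gave -12.9, -12.6, -9.77 and -7.97, and the Cas9-only shares themselves became 2.99%, 3.01%, 2.24% and 1.79%, against 0.0939%, 0.0738%, 0.0537% and 0.0335% at 1 bp. A distance of 5 kb gave -16.9, -16.7, -13.0 and -10.9, and -8.57 for Cas9 H3K27me3. Keeping islands that met Cas9 antibody islands gave -19.0, -18.7, -14.9 and -12.4. Trimming the Suz12F2 list to equal number gave -17.4, -17.1, -13.4 and -11.2. The upper 50% of scores gave -12.0, -11.7, -8.52 and -6.46, and -10.0 for Cas9 H3K27me3. Islands of at least 1 kb gave -16.0 for H3K4me3 of Ezh2KO. Without length weighting they were -15.8, -15.6, -11.9 and -9.53, then -1.85 for Ezh2KO and -11.5 for Cas9 H3K27me3. The upper 50% of each mark list gave -10.7, -10.9, -7.54 and -6.12, and -4.95 for Cas9 H3K27me3, where fewer mark regions were left to overlap. Weighting by length and score, added after seeing the data, gave -7.69, -7.67, -5.96 and -4.85, and -3.70 for Cas9 H3K27me3. The small difference in H3K27me3 of Ezh2KO changed sign to 0.0292 in the upper 50% of scores and to 0.106 with length and score weighting, and the cause was not tested. It was -0.509 (-0.844 to -0.168) with 50% cover, -0.499 (-0.824 to -0.161) with 50% of the mark region inside the island, -0.479 (-0.826 to -0.119) with islands that met Cas9 antibody islands kept and -0.386 (-0.727 to -0.0328) with the trimmed list. Removing Cas9 antibody islands without the Suz12F1 list, also added later, moved no difference beyond its interval. Depth is unknown, so how many Cas9-only islands lay just under the threshold in the Suz12F2 library could not be counted. No paired analysis was possible because each group held 1 library.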

Other observations

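Cas9-only islands met H3K27me3 more often than H3K4me3, and Suz12F2-only islands less often. Weighted to the lengths of the 12312 Suz12F2-only islands, 2.33% of Cas9-only islands met H3K27me3 of Ezh2KO and 5.44% that of Cas9 tumour cells, against 1.67% (1.45 to 1.91) and 5.77% (5.38 to 6.20) of Suz12F2-only islands. For H3K27ac the length-weighted Cas9-only shares were 0.152% and 0.143%, against 7.33% (6.89 to 7.81) and 6.24% (5.82 to 6.68) of Suz12F2-only islands. There were 17 Suz12F2-only islands of a length that no Cas9-only island had, and they have no counterpart in these values.

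Tumour H3K27me3 regions that overlapped a Cas9-only island had a median length of 3400 bp for Ezh2KO and 4200 bp for Cas9 tumour cells. These were the same medians as for regions that overlapped a shared island. Over all regions of these lists the medians were 3000 and 3800 bp. Regions that overlapped a Cas9-only island numbered 494, or 9.30% of the Ezh2KO list, and 1125, or 7.97% of the Cas9 list. Shared islands were overlapped by 49.5% and 64.7% of the regions, and Suz12F2-only islands by 3.99% and 4.95%. Of the 1125, 277 also overlapped a shared island.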
